A study of Homo sapiens with 6 samples.

Results

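The MYC and MAX network was followed by the mRNA of 10 genes, found by symbol among the 20667 gene symbols listed for each library: MYC, its partner MAX, the MAX partners MNT, MXD1, MXD3, MXD4, MXI1 and MGA, and the related pair MLX and MLXIP. RNA was measured by RNA-seq in U2932 cells, an established cell line of ABC-DLBCL, the activated B-cell type of diffuse large B-cell lymphoma, in 3 libraries of cells silenced for ROCK2 (ROCK2 KD) and 3 of control cells carrying a scrambled hairpin (Scr shRNA), both numbered as replicates 1 to 3. Both groups carried a lentiviral pLKO.1 construct with a puromycin resistance cassette and tGFP, and were sorted and puromycin-selected as stable lines. The knockdown rests on 1 ROCK2 shRNA in 1 cell line, and no label says that replicates were separate cultures, so p values measure only the spread between these libraries, which may be technical. The question addressed was whether silencing of ROCK2, a kinase activated by RhoA, altered the transcripts of the MYC network in these cells.

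MYC is a basic helix-loop-helix leucine zipper factor that binds DNA only as a dimer with MAX and promotes transcription of genes for ribosome production, metabolism and cell cycle entry. MAX also pairs with MXD1, MXD3, MXD4, MXI1 and MNT, which recruit SIN3 corepressors to the same E-box sites and oppose MYC, and with MGA, which enters a variant Polycomb complex. MLX is the other hub of the network: it pairs with MLXIP (MondoA), a sensor of glucose metabolites, and with some MXD proteins and MNT. In B cells MYC is switched on transiently in the germinal centre, and its deregulation is frequent in aggressive lymphoma.

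ROCK2 itself was measured at 4.08, 4.38 and 1.03 scaled FPKM in ROCK2 KD replicates 1, 2 and 3 and at 6.40, 5.82 and 4.87 in the matching Scr shRNA libraries (FPKM, fragments normalised for transcript length and for the mapped fragments of the library, here scaled once more between libraries). It was lower in all 3 pairs, by a fitted log2 fold change of -0.81 (standard error, SE, 0.22) that became -0.44 without replicate 3. The fit was limma across all genes with the replicate number as a block, in which the adjusted p of ROCK2 was 0.797, so its lower level did not pass the test. In bulk RNA, fewer cells with a transcript and less of it per cell cannot be told apart. The deposited FPKM summed to between 208289 and 480612 per library, lowest in the replicate 1 library of both groups, and the relative depth inferred from the smallest values lay between 71.4% and 100% of the deepest library. All 7 B cell markers passed the filter on low values, while 0 of 6 T cell and NK markers and 0 of 5 myeloid markers did, and EPCAM was the only 1 of 6 stromal and epithelial markers to pass.

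The ROCK2 shRNA and the E-box, the site that MYC and MAX dimers bind, are shown as the sequences on which the comparison and the network turn. The hairpin targets the 21 bases below, in an exon of ROCK2 at chr2:11322581-11322601 of GRCh37, minus strand, in lower case with no part marked.
ROCK2 shRNA target: ccttgatgtctgtctattatt
The E-box CACGTG, which reads the same on both strands, was looked for in RefSeq promoter windows (build GRCh38.p14, 250 bases before to 50 after each gene start). Of 10 network genes 9 had a window, and MYC had none. The E-box was in 3 of their 14 windows (21.4%), in 16 of the 38 windows (42.1%) of a list of textbook MYC-activated targets, in 9.8% of the 11557 windows of genes tested here and in 7.26% of all 35116 windows. A window was found for 30 of the 35 targets and for 7958 of the 10526 genes tested. The targets HSPD1 and HSPE1 share 1 E-box, which is counted in the window of each. A match describes the letters of a window and is not a bound site. Below are the 3 network genes with a match, and PLK1 and MYBBP1A of the target list, each with 28 bases around the E-box, which is in capitals.
MNT: cctgcccgggcCACGTGtgcgcgcgccg
MXD4: ggccgggccacCACGTGctgttgctaag
MLX: cgggcgcgggtCACGTGggcacgccacc
PLK1: ccaggctatccCACGTGttcgggcgtcc
MYBBP1A: gggccggagcaCACGTGtttcgtgtttc
Matched to GRCh37, they lie at chr17:2304531-2304558 (MNT, minus strand), chr4:2264058-2264085 (MXD4, minus strand), chr17:40719057-40719084 (MLX, plus strand), chr16:23690001-23690028 (PLK1, plus strand) and chr17:4458636-4458663 (MYBBP1A, minus strand).

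In Scr shRNA cells the 2 hubs were the most abundant transcripts of the network and MYC had a low mean level that varied in rank, from place 10 of the 10 in replicate 1 to 7 in replicate 2 and 4 in replicate 3. Mean levels were 30.2 ± 2.10 scaled FPKM (SD, n = 3) for MAX and 25.9 ± 2.69 (SD, n = 3) for MLX, against 3.43 ± 2.18 (SD, n = 3) for MYC. FPKM are per length, so levels may be set side by side: MAX stood at the 81st percentile of the 10526 genes tested, MYC at 21.2% and MXD1 at 11%. Between them, in descending order, came MXD4 at 14.9 ± 1.27, MXD3 at 8.08 ± 5.64, MLXIP at 5.81 ± 1.13, MGA at 5.06 ± 0.283 and MNT at 3.60 ± 0.741, and below MYC came MXI1 at 2.97 ± 2.14 and MXD1 at 2.15 ± 1.36 (SD, n = 3 each). The ranges over the 3 libraries were apart for MAX and MLX, for MLX and MXD4 and for MGA and MNT, while every other pair of neighbours overlapped. In ROCK2 KD the 6 most abundant genes stood in the same order, and MXI1 (3.30 ± 2.55), MNT (3.19 ± 0.960), MYC (2.86 ± 1.01) and MXD1 (2.23 ± 0.882; SD, n = 3 each) followed with overlapping ranges. Without scaling, MYC and MNT exchanged places in Scr shRNA, and in ROCK2 KD MYC moved from place 9 to 7 and MXI1 from 7 to 9. Of the related genes outside the 10, MYCN was listed at 0 in all 6 libraries, MLXIPL, the liver counterpart of MLXIP, at 0 in 5, and MYCL lay between 0.0609 and 0.978 scaled FPKM, so none was tested.

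**Figure D1:**
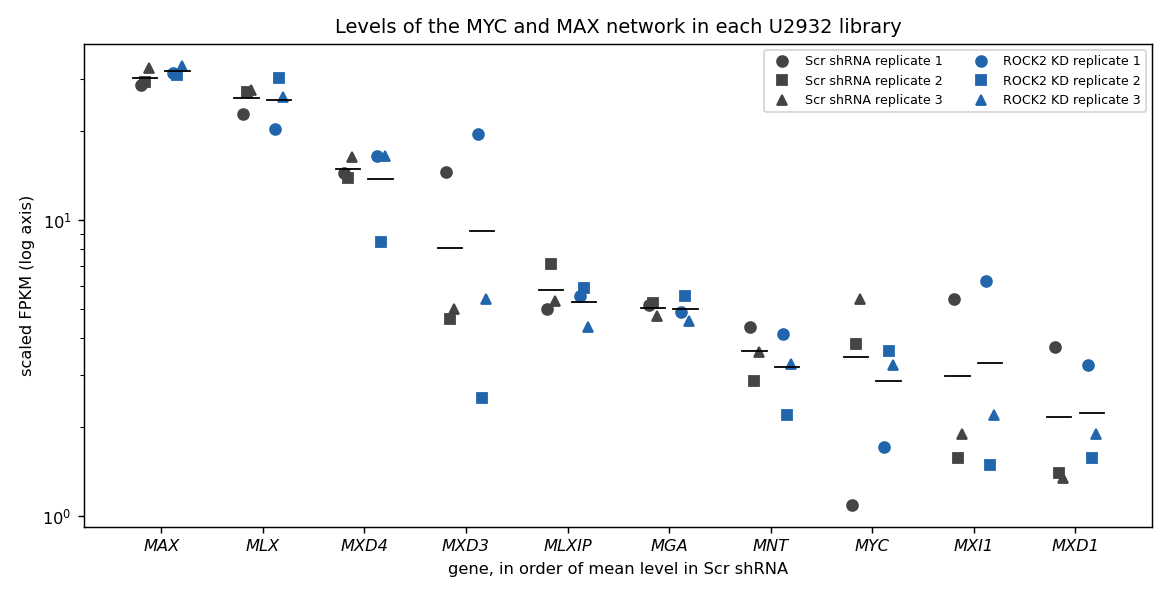
Scaled FPKM (log axis) of the 10 genes in each library, ordered by the mean in Scr shRNA, with Scr shRNA in black, ROCK2 KD in blue, replicate numbers as symbols and bars for the group means (n = 3). MAX and MLX sit above 20, MYC between 1.09 and 5.40, and the circles of replicate 1 stand apart for MXD3, MXI1, MXD1 and MYC in both groups.

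MYC mRNA (chromosome 8) was measured at 1.71, 3.62 and 3.24 scaled FPKM in ROCK2 KD replicates 1, 2 and 3, and at 1.09, 3.81 and 5.40 in the matching Scr shRNA libraries. The groups overlapped, and the direction differed between pairs: ROCK2 KD was at 1.57 times the Scr shRNA level in replicate 1, at 0.950 times in replicate 2 and at 0.599 times in replicate 3. On the log2(scaled FPKM + 1) scale, which understates differences of low genes, the differences were 0.38, -0.06 and -0.60 and the fitted log2 fold change -0.09 (SE 0.18, 95% interval -0.53 to 0.35, limma adjusted p = 0.995). The sign depended on 1 pair, with 0.16 when replicate 3 was left out and -0.33 when replicate 1 was. The interval spans both an increase and a decrease, and does not show that the levels were alike. The Scr shRNA library of replicate 1 had a deposited FPKM of 0.735, the only value of a network gene under 1.

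MAX (chr14:65472892-65569413 of GRCh37, as for the other positions), the obligate partner of MYC, was the most even member. Its levels were 31.4, 31.1 and 33.3 scaled FPKM in ROCK2 KD replicates 1, 2 and 3 and 28.8, 29.3 and 32.6 in Scr shRNA. ROCK2 KD was slightly higher in each pair, by log2 differences of 0.12, 0.08 and 0.03, but the groups overlapped, and the log2 fold change of 0.08 (SE 0.10, 95% interval -0.15 to 0.31) did not pass the test. Part of the annotated MAX exons (13.1%) is shared with FNTB on the other strand, and since no source states that strand was used in counting, reads there cannot be assigned to 1 gene. The same holds for MLX, which shares 18.2% of its exon bases with PSMC3IP, and for MNT, which shares 12.2% with a long noncoding RNA, in both cases on the other strand.

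Among the antagonists that pair with MAX, MNT (chr17:2287367-2304398), the most broadly expressed of them, was the only gene lower in all 3 pairs. It was measured at 4.11, 2.19 and 3.25 scaled FPKM in ROCK2 KD replicates 1, 2 and 3 and at 4.34, 2.86 and 3.58 in Scr shRNA. The differences of -0.07, -0.27 and -0.11 gave a log2 fold change of -0.15 (SE 0.11, 95% interval -0.42 to 0.12, limma adjusted p = 0.968), within the spread between libraries. MXD4 (chr4:2249159-2263836), linked to differentiating and resting cells, held 16.5, 8.45 and 16.4 scaled FPKM in ROCK2 KD and 14.4, 13.9 and 16.3 in Scr shRNA. Its lowest value came from ROCK2 KD replicate 2 alone, and the log2 fold change was -0.15 with that pair and 0.10 without it.

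MXD3 (chr5:176728462-176739758), an S-phase member of the family, held 19.6, 2.49 and 5.43 scaled FPKM in ROCK2 KD replicates 1, 2 and 3 and 14.6, 4.62 and 5.02 in Scr shRNA. Replicate 1 was the highest in both groups and replicate 2 the lowest, and the within-pair differences of 0.41, -0.69 and 0.09 had the widest range of the 10 genes. The log2 fold change was -0.06 (95% interval -0.54 to 0.42), and 0.25 without replicate 2. MXD3 shares 24.2% of its annotated exon bases with PRELID1 on the other strand and 19.5% with RAB24 on its own, so its value is less certain than those of the others.

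MXI1 (chr10:111967363-112047123), also known as MXD2, and MXD1 (chr2:70124820-70170077), a gene induced on differentiation, were both low. MXI1 was measured at 6.21, 1.48 and 2.19 scaled FPKM in ROCK2 KD and at 5.43, 1.57 and 1.90 in Scr shRNA, and MXD1 at 3.23, 1.57 and 1.88 against 3.73, 1.39 and 1.34, for replicates 1, 2 and 3. Their log2 fold changes were 0.08 and 0.08, with SE of 0.11 and 0.13, and each was higher in ROCK2 KD in 2 of 3 pairs. Without replicate 3, the value of MXD1 was -0.029.

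The MLX arm showed no difference between the groups beyond the error. MLX (chr17:40719090-40725257) held 20.3, 30.3 and 26.1 scaled FPKM in ROCK2 KD replicates 1, 2 and 3 and 22.8, 27.2 and 27.6 in Scr shRNA, with a log2 fold change of -0.03 (95% interval -0.29 to 0.23). MLXIP (chr12:122516628-122631894) held 5.56, 5.91 and 4.34 against 5.00, 7.10 and 5.32, with a log2 fold change of -0.11 (95% interval -0.41 to 0.18) that was -0.24 without replicate 1 and -0.051 without replicate 3. MLXIP was lower in ROCK2 KD in replicates 2 and 3 and higher in replicate 1, and MLX was higher only in replicate 2. MGA (chr15:41913332-42065279), the largest protein of the network, varied little between libraries, with levels from 4.54 to 5.52 in ROCK2 KD and from 4.74 to 5.26 in Scr shRNA and a log2 fold change of -0.02 (95% interval -0.27 to 0.24).

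**Figure D2:**
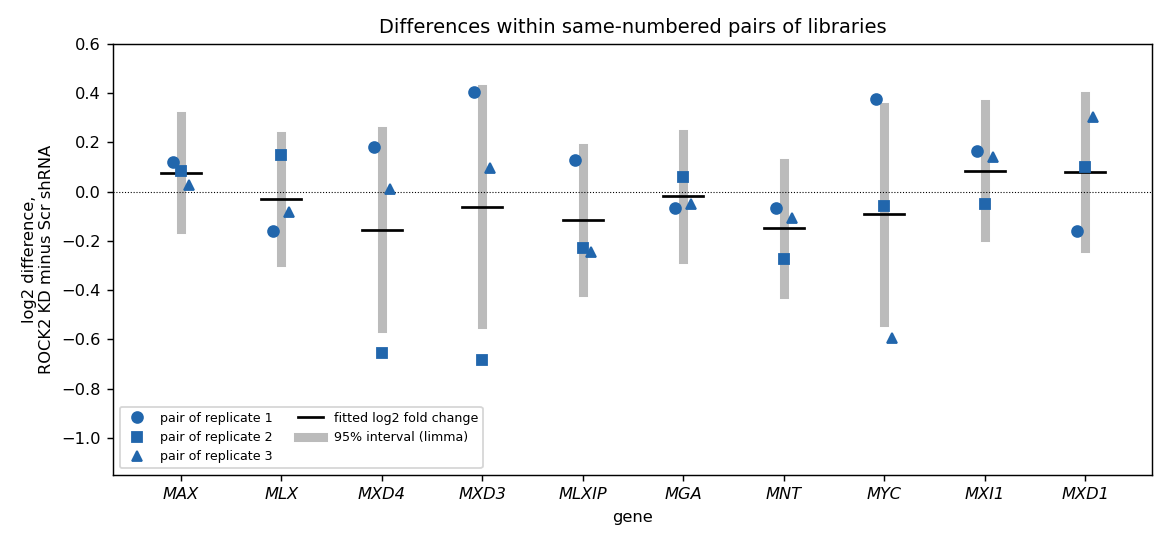
Log2 differences between ROCK2 KD and Scr shRNA within each same-numbered pair (symbols), the fitted log2 fold change (black bar) and its 95% interval from limma (grey) for the 10 genes. Every interval includes 0, MAX lies above 0 and MNT below 0 in all 3 pairs, and MXD3, MYC and MXD4 are spread the most.

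All 10 genes exceeded the low-value threshold, which asked for a deposited FPKM of 1 or more in 3 libraries. In limma, 0 of the 10 had an adjusted p under 0.05 for ROCK2 KD against Scr shRNA, where 0% of all genes tested did, and their adjusted p values lay between 0.968 and 0.997. At an unadjusted p under 0.05 there were also 0 of the 10, against 5.42% of all genes tested. Fitted log2 fold changes were negative for 7, against 51.7% of all genes tested, and positive for 3, with a median of -0.05 beside -0.01 over all genes. All 3 pairs had 1 direction for 2 genes, against 25.1% of all genes tested. These were MAX, higher in every pair as were 12.8% of all genes, and MNT, lower in every pair as were 12.4%. The groups did not overlap for 0 of 10, against 2.19%. With the replicate effect removed by ComBat and limma run without the block, 296 genes (2.81%) had an adjusted p under 0.05, none of them in the network. That fit does not allow for the replicate effect already taken out, so its p values are likely too small. In that setting 1 of the 10 genes, MNT, had an unadjusted p under 0.05, against 20.1% of all genes tested, and its limma adjusted p was 0.183.

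The replicate number went with larger differences than ROCK2 silencing did, among these genes as among all genes tested. Over the 10 genes, the median absolute difference between replicate 1 and the mean of replicates 2 and 3 was 0.38 on the log2 scale, against a median absolute log2 fold change of 0.08 for ROCK2 KD, and over all genes tested these medians were 0.38 and 0.09. An F test of the replicate number in the same limma fit, added after the values were seen, gave an adjusted p under 0.05 for 5 of the 10 genes, near the 48.8% of all genes tested, so the network did not stand out. Replicate 1 lay outside the other libraries in both groups for 4 genes above and 2 below them, where 59.9% of all genes tested did so in either direction. The F test covers all 3 replicate numbers, so its p is not that of the difference printed beside it. In replicate 1, MYC was below all other libraries in both groups (log2 difference -1.06, SE 0.20, F test adjusted p = 0.0117), while 4 antagonists were above all others in both groups. These were MXD3 (1.77, SE 0.21, F test adjusted p = 0.00229), MXI1 (1.30, SE 0.12, F test adjusted p = 0.000993), MXD1 (0.82, SE 0.14, F test adjusted p = 0.00849) and MNT (0.41, SE 0.12, F test adjusted p = 0.0307). Of all genes tested, 28.5% lay below and 31.4% above the other libraries in this way, and 25.5% were higher in replicate 1 and passed the F test. With no filter on low values, MYC and MNT no longer passed, and without scaling MXD1 and MNT did not (F test adjusted p = 0.378 and 0.0691). MAX, MGA, MXD4 and MLXIP in replicate 1 overlapped the other libraries, and MLX was below them at -0.35 without passing (F test adjusted p = 0.0805).

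The direction was alike in the 2 groups for each of the genes that passed: MYC differed by -0.70 in ROCK2 KD and -1.41 in Scr shRNA, MXI1 by 1.36 and 1.24, MXD3 by 2.12 and 1.42, MXD1 by 0.64 and 0.999 and MNT by 0.47 and 0.34. Without scaling, where the median gene of replicate 1 differed from the other replicates by -0.70, the values of MNT, MGA and MXD4 fell below 0, and relative to that median all 3 stayed above it, by 0.46, 0.015 and 0.11. MS4A1 (CD20), which with CD38 and BCL6 distinguishes known subclones of U2932, was also lower in replicate 1 of both groups, at 171 and 109 scaled FPKM against 319 to 418 in the other libraries. CD38 passed the F test (F test adjusted p = 0.0438) and differed by -0.68 in replicate 1, but by -0.057 in ROCK2 KD and -1.305 in Scr shRNA. BCL6 did not pass, and both CD38 and BCL6 overlapped the other libraries. Of the B cell markers, MS4A1, CD74, CD79B, IRF4, PAX5 and CD79A passed the F test of the replicate number and were lower in replicate 1, by between -1.47 and -0.41 against the mean of the others (23.3% of all genes tested passed in that direction). The summed level of the B cell markers ranged from 963 to 2006 scaled FPKM in ROCK2 KD and from 657 to 1897 in Scr shRNA. That of the 3 subclone markers, most of it MS4A1, ranged from 231 to 483 in ROCK2 KD and from 149 to 450 in Scr shRNA, and the part of either marker list in the values of MYC and its antagonists was not tested.

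**Figure D3:**
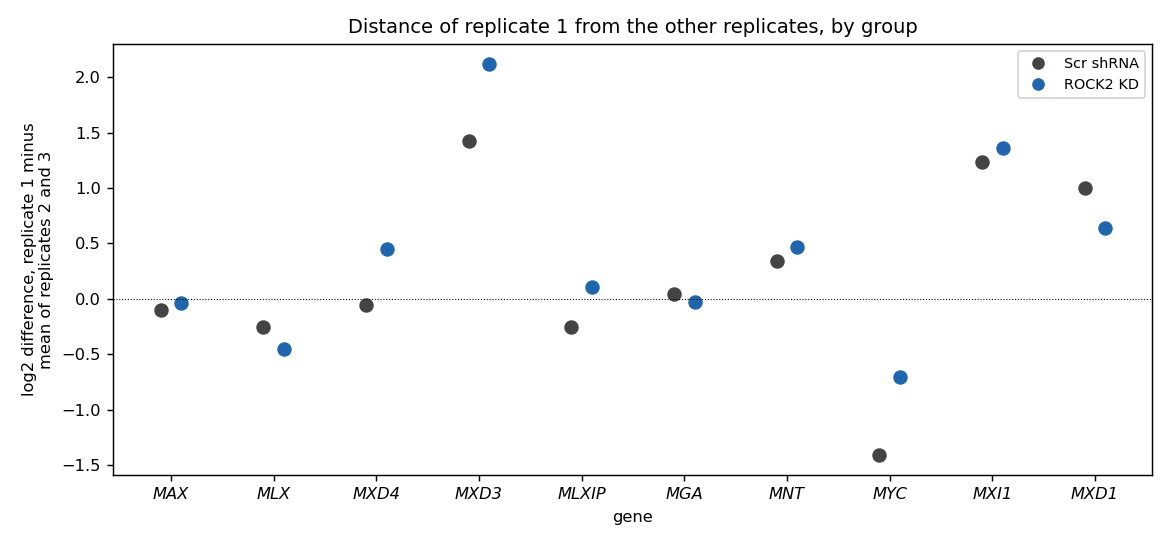
Log2 difference between replicate 1 and the mean of replicates 2 and 3 for each gene, separately in Scr shRNA (black) and ROCK2 KD (blue), on scaled FPKM. MYC is negative and MXD3, MXI1, MXD1 and MNT positive in both groups, while MAX and MGA lie near 0.

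Ratios within a library do not depend on the scaling. MAX exceeded MYC by 18.3, 8.58 and 10.3 times in ROCK2 KD replicates 1, 2 and 3 and by 26.4, 7.68 and 6.04 times in Scr shRNA, so MAX transcript was in excess in all 6 libraries. The log2 ratio of MYC to MAX differed between ROCK2 KD and Scr shRNA by 0.53, -0.16 and -0.77 in the 3 pairs, a mean of -0.13 ± 0.65 (SD, n = 3 pairs), smaller than the spread. The summed antagonists MXD1, MXD3, MXD4, MXI1 and MNT exceeded MYC by 29.0, 4.47 and 9.02 times in ROCK2 KD and by 39.1, 6.39 and 5.21 times in Scr shRNA. For the ratio of MYC to their sum, the pairs differed by 0.43, 0.51 and -0.79, with a mean of 0.05 ± 0.73 (SD, n = 3 pairs). MLX exceeded MLXIP by 3.65 to 6.01 times, and the log2 ratio of MLXIP to MLX differed by 0.32, -0.42 and -0.21 (mean -0.10 ± 0.38, SD, n = 3 pairs). None of the 3 ratios moved in 1 direction in all pairs.

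**Figure D4:**
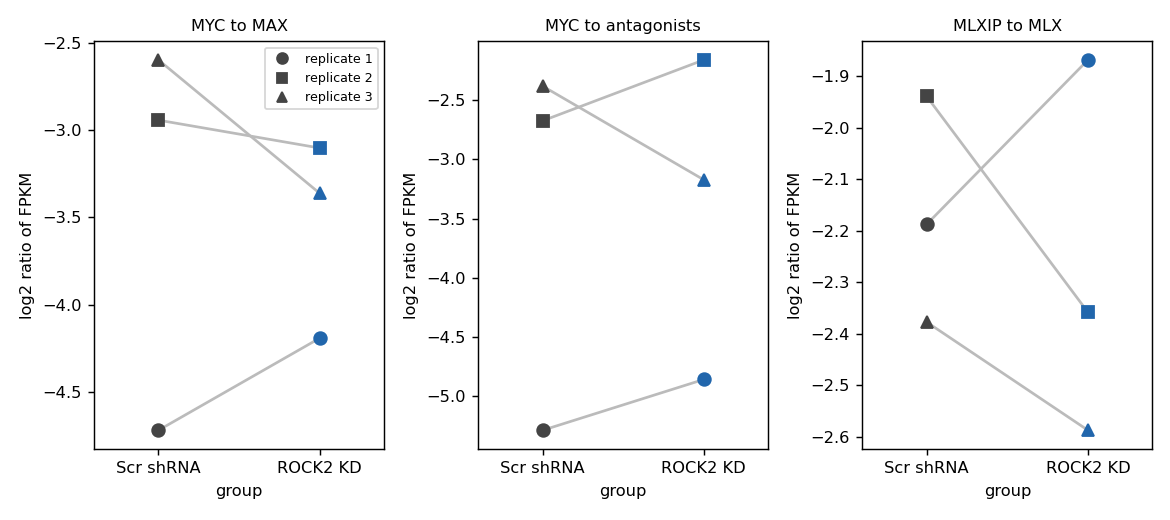
Log2 ratios of FPKM within each library for MYC to MAX, MYC to the summed antagonists and MLXIP to MLX, with lines joining same-numbered Scr shRNA (black) and ROCK2 KD (blue) libraries. In each panel the lines slope in different directions, and in the first 2 panels replicate 1 lies lowest in both groups.

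A list of 35 textbook genes that MYC activates was followed beside MYC, and 33 of them passed the filter. None had an adjusted p under 0.05 (0% of all genes tested) or an unadjusted p under 0.05 in limma. The fitted fold change was positive for 18 and negative for 15, from -0.22 for MYBBP1A to 0.21 for TFRC, the transferrin receptor. TFRC was at 0.023 without replicate 2 and 0.34 without replicate 3. The pairs differed, as they did for MYC. In replicate 3, where MYC was lower in ROCK2 KD by 0.60 on the log2 scale, 31 of the 33 targets were lower, against 53.6% of all genes tested, and their median difference was -0.28 beside -0.02 for all genes. Only PHB (0.27), a mitochondrial prohibitin, and EIF4A1 (0.03), a helicase of translation initiation, were higher there. Of the cofactor lists given below, 10 of 12 MYC coactivators and partners were also lower in that pair (median -0.15). So were 6 of 11 corepressor genes, 3 of 9 Polycomb partners of MAX and MGA and 9 of 18 genes of MYC protein turnover. In replicate 2, with MYC at -0.06, 24 of 33 were higher, against 51.8% of all genes, and the median was 0.15. In replicate 1, with MYC at 0.38, 21 of 33 were higher, against 52.1%, with a median of 0.06. Replicate 3 was also the pair with the lowest ROCK2 level, 1.03 scaled FPKM, and with the lowest BCL6 relative to its control, a log2 difference of -1.16. The other subclone markers differed by 0.15 (CD38) and -0.23 (MS4A1) in that pair. Their part in the target values was not tested, and targets in 1 library are not replicates.

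**Figure D5:**
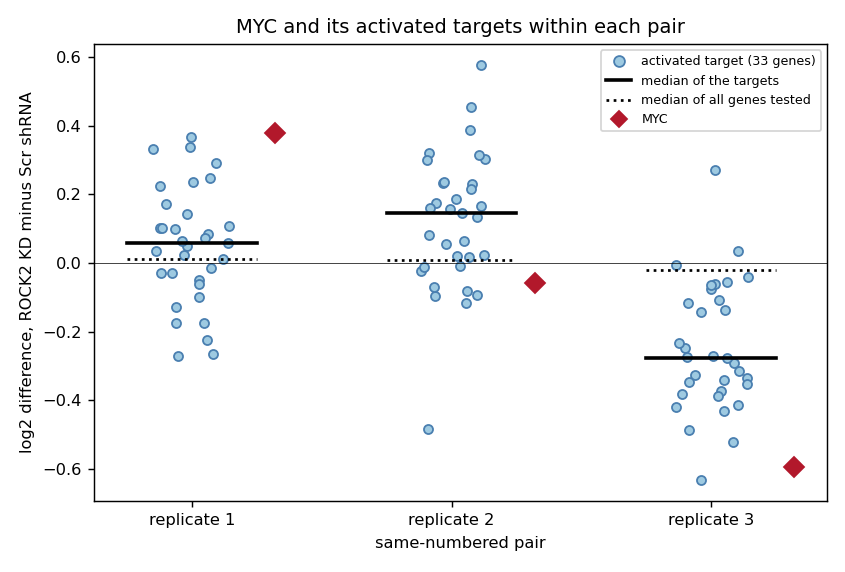
Log2 difference between ROCK2 KD and Scr shRNA in each same-numbered pair for 33 MYC-activated targets (circles), with their median (solid line), the median of all genes tested (dotted line) and MYC (diamond). The targets lie mostly above 0 in replicates 1 and 2 and below 0 in replicate 3, where the median is -0.28.

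MYBBP1A, a nucleolar protein, was measured at 15.7, 28.7 and 22.6 scaled FPKM in ROCK2 KD replicates 1, 2 and 3 and at 14.6, 31.2 and 35.5 in Scr shRNA. Its log2 fold change of -0.22 (SE 0.15, limma adjusted p = 0.964) was -0.37 without replicate 1 and -0.0077 without replicate 3. It was lower in ROCK2 KD in replicates 2 and 3 and higher in replicate 1, as MYC was. PLK1, the mitotic polo-like kinase, which also phosphorylates proteins of MYC turnover, was at 25.3, 78.2 and 82.3 against 24.9, 83.5 and 96.9, a log2 fold change of -0.10 (SE 0.10) that was -0.16 without replicate 1 and -0.036 without replicate 3. In both genes the groups overlapped and replicate 1 was the lowest. In replicate 1, 27 of the 33 targets passed the F test of the replicate number and were lower than the mean of replicates 2 and 3, against 23.3% of all genes tested for that direction. SRM, spermidine synthase, differed by -1.51, ODC1, ornithine decarboxylase, by -1.11, and NCL, nucleolin, by -1.05.

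Of 6 genes that MYC represses, 4 passed the filter and 0 had an adjusted p under 0.05, where 0% of all genes tested did. At an unadjusted p under 0.05 there was 1 of the 4, CDKN2B, against 5.42% of all genes tested. CDKN2B, an inhibitor of CDK4 and CDK6, was higher in ROCK2 KD in all 3 pairs, as were 12.8% of all genes tested, at 3.19, 1.43 and 4.13 scaled FPKM against 1.93, 1.22 and 2.73 in replicates 1, 2 and 3. Its log2 fold change was 0.37 (SE 0.13, limma adjusted p = 0.871), and the ranges of the groups overlapped. GADD45A, a stress-induced growth arrest gene, had the lowest value of the list at -0.33, with differences of 0.36, -0.95 and -0.40. It was at -0.675 without replicate 1 and -0.018 without replicate 2. NDRG1, which is induced in hypoxia, stayed below the filter: it was at 12.6 and 9.74 scaled FPKM in replicate 1 of ROCK2 KD and Scr shRNA and between 0.233 and 0.355 in the other 4 libraries. TXNIP, the glucose-responsive target of MLXIP and MLX, showed the same layout, at 98.5 and 91.7 in replicate 1 and from 9.88 to 16.6 elsewhere. It did not differ between the groups beyond the error (log2 fold change -0.02, SE 0.13), while replicate 1 was higher by 2.84 on the log2 scale (adjusted p = 8.27e-05 from the F test in limma). ARRDC4, the other MLXIP target of the list, did not pass the filter.

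The cofactors of the network did not pass the test either, with 0 genes at an adjusted p under 0.05 in each of 4 lists, where 0% of all genes tested passed. Among 12 MYC coactivators and partners, 9 had negative fold changes, against 51.7% of all genes tested. KAT2A, a histone acetyltransferase, had the lowest at -0.27 (SE 0.12, limma adjusted p = 0.900) and was lower in all 3 pairs, as were 12.4% of all genes tested. TRRAP, the scaffold of MYC-bound acetyltransferase complexes, had the highest at 0.13. The 11 SIN3 and NCOR corepressor genes, which MXD proteins, MXI1 and MNT recruit, ran from -0.19 for SAP18 to 0.11 for SAP30, with 7 positive. The 9 partners of MAX and MGA in the variant Polycomb complex had the narrowest range, from -0.10 for E2F6 to 0.07 for RYBP. The signs of SAP30 and E2F6 turned without replicate 1 and that of RYBP without replicate 3. Of 18 genes that act on MYC protein turnover, 10 were positive, from -0.15 for AXIN1, a scaffold for MYC phosphorylation, to 0.15 for GSK3B, the kinase that marks MYC for degradation. RNA-seq does not measure MYC protein, on which these genes act.

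The genes whose 6 log2 levels, centred on their own mean, lay closest to those of MYC were FAM81A, FARSA (a phenylalanyl-tRNA synthetase subunit), INCENP (of the chromosomal passenger complex), IMP4 (of ribosomal RNA processing) and ANP32A. Their root mean square differences from MYC were between 0.07 and 0.11 on the log2 scale, out of 10525 genes ranked over 6 libraries. All 5 were lowest in replicate 1 of both groups as MYC was, which follows from how they were chosen. Of all genes tested, 28.5% lay so. Within the network MLX came closest, at 0.41 and rank 2333, and MXD3 was the farthest, at 1.37 and rank 10327.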

How the data were processed

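RNA-seq of 6 U2932 libraries was used, 3 per group, with groups and replicate numbers from the labels. Per the labels and the study's methods, the authors made Nextera libraries, used STAR to align paired reads to hg19 and Cufflinks to compute FPKM. The deposited values are FPKM per gene symbol, with no header, and hold no read counts, so no counting interval is given. Positions come from GENCODE 44 lifted to GRCh37, the assembly of hg19.

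Libraries were scaled by trimmed means of log ratios (trims 0.3 and 0.05). Genes had to reach a deposited FPKM of 1 in 3 or more libraries, which 10526 did, and log2(scaled FPKM + 1) was tested. limma 3.58.1 in R 4.3.3 was fitted across all genes with the replicate number as a block, an empirical Bayes step with trend, and Benjamini-Hochberg adjustment at 0.05, two-sided. The study corrected a replicate-based batch effect, and libraries with 1 number, each centred on its group mean, were correlated (r = 0.848, 0.785 and 0.736 across genes). The fit was tested on simulated data. Plots were drawn with matplotlib 3.10.9 in Python 3.11.15.

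The named genes are the 10 members, ROCK2, PLK1, MYBBP1A, the largest rise and fall of each list and the 5 genes most like MYC. All other genes named with values, such as SRM, ODC1, NCL, PHB, EIF4A1, NDRG1, ARRDC4, EPCAM, MYCN, MYCL, MLXIPL and the B cell and subclone markers, were named after their values were seen. Members and lists were chosen with earlier results of these data known. Alternatives covered the block, pseudocount, filter, scaling, trend, ComBat and leaving out each replicate.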

Additional observations from a re-analysis of the deposited data

How the results depend on the processing

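The count of network genes with an adjusted p under 0.05 for ROCK2 KD against Scr shRNA was 0 in all 12 settings run, as was that of the partner and target lists. Where all 6 libraries had to reach an FPKM of 1, MYC was not tested and the count covers the other 9 genes. Over all genes tested it was 0 as reported and between 0 and 18 when 1 replicate was left out. After ComBat followed by limma without the block, where p values are likely too small, it was 296. Without the replicate block, 0 genes passed and 31 had an unadjusted p under 0.05 against 570 with it, and the block changed no call of a network gene. With 1 replicate left out, log2 fold changes ran from -0.33 to 0.16 for MYC, -0.029 to 0.20 for MXD1, -0.295 to 0.25 for MXD3, -0.32 to 0.10 for MXD4, -0.24 to -0.051 for MLXIP, -0.19 to -0.087 for MNT, 0.055 to 0.10 for MAX, 0.045 to 0.15 for MXI1, -0.12 to 0.034 for MLX, -0.058 to 0.0047 for MGA, -0.019 to 0.20 for SAP30, -0.21 to 0.082 for E2F6, -0.069 to 0.27 for RYBP, -0.11 to 0.13 for TXNIP, -0.31 to -0.10 for SAP18, -0.37 to -0.18 for KAT2A and 0.10 to 0.22 for GSK3B. The count of network genes that passed the F test of the replicate number, 5 as reported, was 3 with no filter on low values and 8 without scaling, where 8113 genes passed in place of 5133. Without scaling MXD1 and MNT lost the call, while MAX, MLX, MLXIP, MXD4 and MGA gained it. Without scaling, the difference of replicate 1 from the others was -0.25 for MNT, -0.59 for MXD4 and -0.69 for MGA, the reverse of the reported sign, where the median gene lay at -0.70. Relative to that median they were 0.46, 0.11 and 0.015. With median scaling, the difference of MGA was -0.015. Leaving out a replicate was not run for the F test, which compares the replicates. Without scaling, 8 of 10 genes kept their place in the order of levels in Scr shRNA. FPKM hold no read counts. MYC, MXD1, MXI1, MNT and MGA lie below 7 scaled FPKM, where the pseudocount compresses differences. MLXIP, at up to 7.10, and MXD3 outside replicate 1 lie in or near that range.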
